A study of Mus musculus with 4 samples.

Results

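Transitory effector (Teff) cells were 1891 of 11754 single CD8+ T cells from mouse BM. They were chosen by the deposited name of their cluster alone. They numbered 568, 473, 198 and 652 cells in libraries 1 to 4. CD8+ T cells were sorted from the BM of 5 pooled mice per library at day 28 after SCT, and gene expression and the TCR of each cell were sequenced. The recipients, on a C57BL/6 background and either WT or CRBN transgenic, were transplanted with BM and T cells of genetically matched donors, and the labels do not say which groups were WT. The methods give female mice of 8 to 12 weeks that carried Vk12653 myeloma before transplant. The 4 groups received isotype control antibody (cIg) or αTIGIT, 100 μg per dose, from the day of transplant, and vehicle or lenalidomide, 50 mg/kg daily, from day 14, so that 1 library stood for each of cIg with vehicle, αTIGIT with vehicle, cIg with lenalidomide, and both agents. The library numbers in the data are not tied to these groups, so values are given by library number, no treatment was compared and no test was made between libraries.

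In chronic infection and in tumors, exhausted CD8+ T cells (Tex) are renewed by progenitors that keep the transcription factor TCF1, encoded by Tcf7. Their progeny pass through a dividing or recently divided effector-like stage, often marked by the chemokine receptor CX3CR1, before some of them acquire TIM-3 and other features of terminal exhaustion. Cells of this transitory stage still carry granzymes.

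Levels are the UMIs of a gene summed over the cells of a cluster per 1000000 UMIs of these cells (CPM), where a UMI stands for 1 captured RNA molecule. Ratios are log2 with 10 CPM added to both sides. A gene was called when it had at least 50 CPM on a side, differed at least 2-fold over all libraries and lay on the same side of 0 in libraries 1, 2, 3 and 4. The clusters were defined on these same transcripts, so all differences between clusters are descriptions. The intervals given are at the 95% level and cover counting error only.

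Nearly all cells formed 1 region of the UMAP, next to TIM-3+ Tex on one side and with a thin bridge towards naive T cells (Tn) on the other. They made up 13.4% (Clopper-Pearson interval 12.4% to 14.5%), 23.6% (21.8% to 25.5%), 11.5% (10.0% to 13.1%) and 17.2% (16.0% to 18.4%) of libraries 1 to 4. The share was highest in library 2 and lowest in library 3, and was 14.5% of all cells without library 2. The libraries held 15556967 to 38440687 UMIs, and the median cell of the cluster held 5545 UMIs, fewer than in any other cluster (6047 to 13960). A cell barcode was shared between libraries for 24 of the 1891 cells, and no pair of cells with a shared barcode had the same clonotype.

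**Figure D1:**
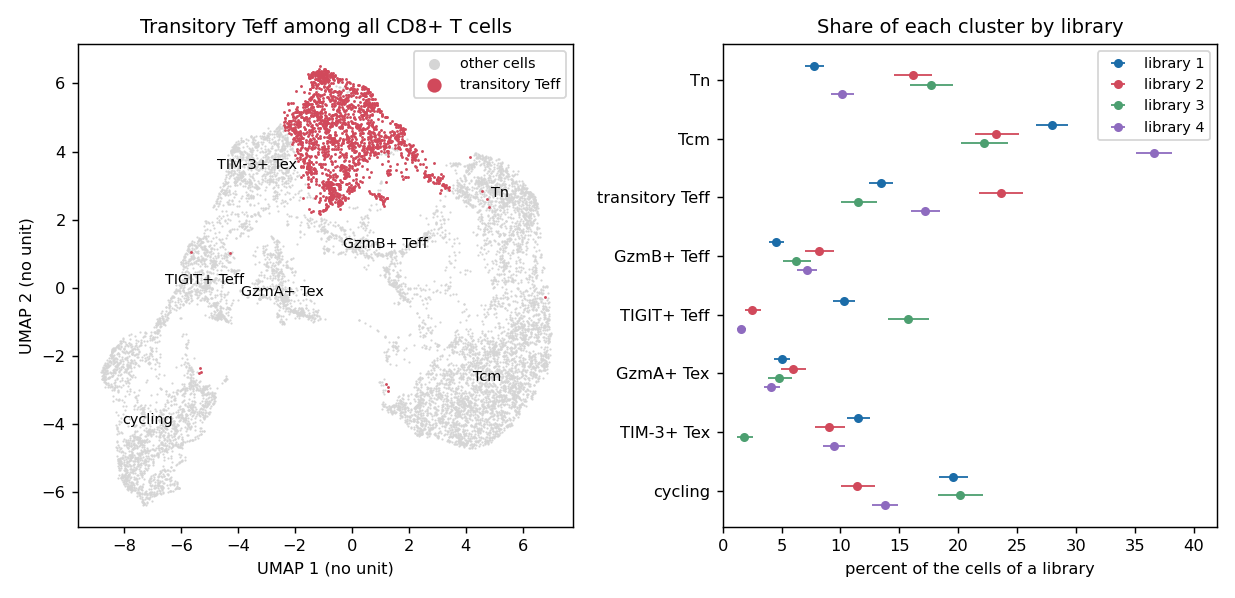
Left, position of each cell in the authors' UMAP (2 axes without unit), with transitory Teff in red and other cells in grey. Right, share of each cluster in each library in percent of cells, with 95% Clopper-Pearson intervals as bars. Transitory Teff made up between 11.5% and 23.6% of a library.

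The levels of 4 markers given beforehand for the cluster describe it. They cannot check its name, because the clusters were defined on these same transcripts. Ier3 (chromosome 17, 35821684 to 35822923, GRCm38), an early response gene linked to survival under stress, was at 62.2, 162, 97.3 and 100 CPM in libraries 1 to 4 against 17.9, 30.5, 27.2 and 34.6 CPM in all other cells. It was higher in the cluster in every library, and the log2 ratio was 1.63. Id3 (chromosome 4, 136143497 to 136145755), an inhibitor of E proteins that is kept in memory precursors, was at 83.2, 63.2, 44.2 and 121 CPM against 29.6, 35.5, 29.4 and 39.7 CPM, with a log2 ratio of 1.18. Its lowest library stood above every library of the other cells, but the ratio fell to 0.93 when each cell was thinned to 2500 UMIs and to 0.50 when cells were grouped by their Leiden number, under the threshold of 1.

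Gzmk (chromosome 13, 113171608 to 113225908), a granzyme of early effector and memory cells, was at 486, 499, 534 and 520 CPM against 347, 269, 297 and 306 CPM. Its log2 ratio of 0.67 was not called, and TIM-3+ Tex and cycling cells had more (584 and 563 CPM). Cxcr3 (chromosome X, 101731535 to 101734269), the receptor of the interferon-induced chemokines CXCL9 and CXCL10, was at 257, 231, 319 and 212 CPM against 192, 160, 247 and 204 CPM. It was not called either (log2 ratio 0.25), and its level was higher in central memory T cells (Tcm, 285 CPM) and TIGIT+ Teff (281 CPM). Of the 4 markers, Ier3 and Id3 were thus past 2-fold against all other cells and Gzmk and Cxcr3 were not. Single clusters came closer, with Ier3 at 63.6 CPM in TIM-3+ Tex against 104 CPM, and Id3 at 62.4 CPM in Tn against 88.9 CPM. After thinning, 11.3% of the cells had an Id3 UMI in both Tn and transitory Teff (23.0% and 19.9% unthinned).

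**Figure D2:**
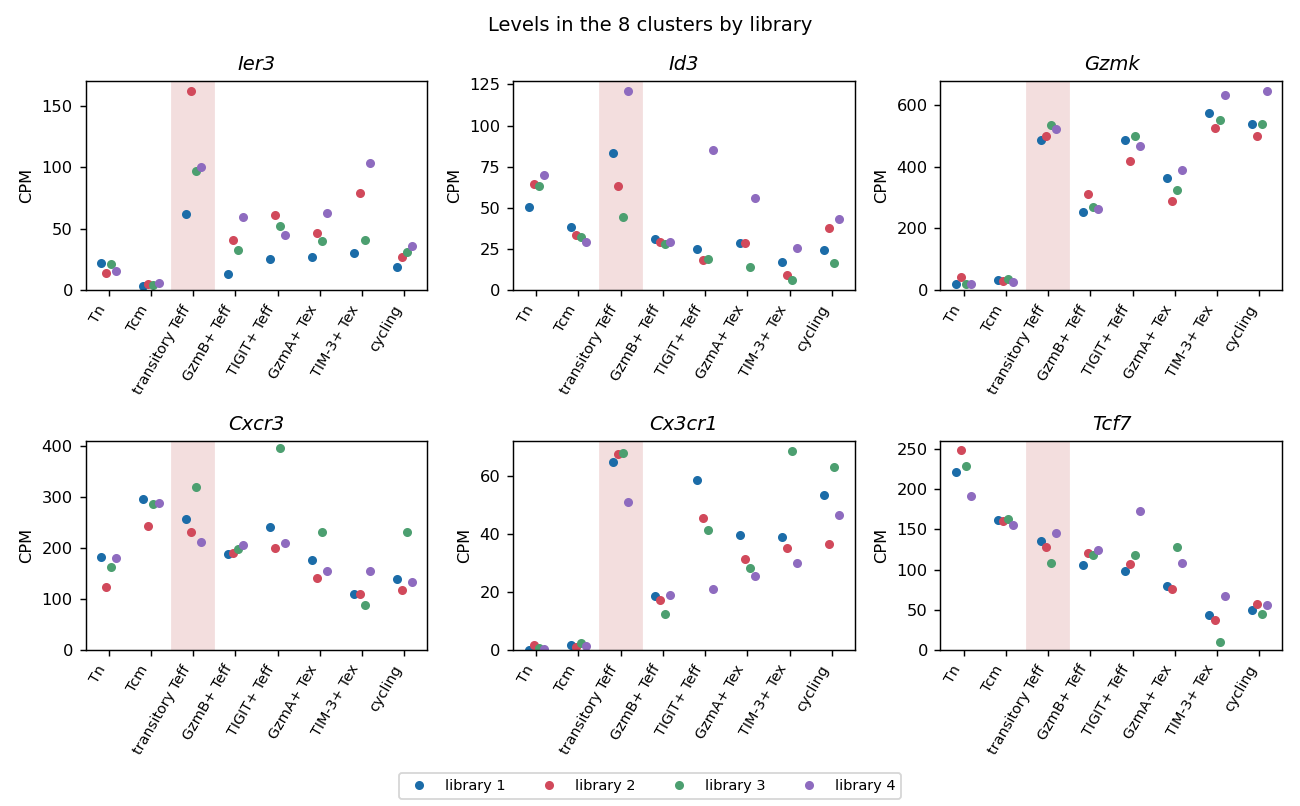
Levels in CPM (linear axes from 0) of 6 genes in the 8 clusters, with 1 point per library and transitory Teff shaded. Ier3 and Id3 were highest in transitory Teff over all libraries, Gzmk was at 25.7 CPM in Tn and 30.5 CPM in Tcm, and Cx3cr1 stood at 51.0 to 67.8 CPM in transitory Teff.

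Over all genes, 3 of 2910 tested were called higher in transitory Teff than in all other cells (0.103%), and 55 were called lower (1.89%). The third higher gene was the long noncoding RNA 2310001H17Rik, at 119 against 52.9 CPM. Without library 4, Ier3 was the only gene called higher. Without library 1, 8 genes were called higher, and Cx3cr1, Xcl1 and Nrgn were among them.

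The 12 lowest of the genes called were of cell division and replication. Mki67, a marker of dividing cells, was at 27.6, 17.8, 38.3 and 18.6 CPM in libraries 1 to 4 against 325, 126, 556 and 126 CPM in other cells (log2 ratio -3.06). Every library of transitory Teff lay below every library of the other cells. Pclaf (-3.02) and Rrm2 (-2.55), of DNA synthesis, and Cenpf (-2.63), Ccna2 (-2.63), Birc5 (-2.49), Top2a (-2.49), Kif11 (-2.32), Tpx2 (-2.29) and Ube2c (-2.24), of mitosis and chromosome separation, followed with the histone genes Hist1h2ae (-2.59) and Hist1h2ap (-2.47). Of 15 cell cycle genes listed, 13 were called lower and none higher, with a median log2 ratio of -1.98, against -0.01 over all genes tested.

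The other cells include the cycling cluster, where Mki67 was at 833 CPM. With cycling cells left out, an alternative added after the data had been seen, 13 genes were called higher and 18 lower, and 8 of the 55 lower genes were still called. The higher genes were Ier3, Cx3cr1, Lgals3, S100a4, Cdc25b, Gzmk, Id3, S100a6, Lgals1, Nrgn, 2310001H17Rik, Cd9 and Klf2. Birc5 and Ube2c then had ratios above 0 (0.13 and 0.41). The lower genes were led by Klra7 and Klrb1c, genes of NK receptors.

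Of 14 genes of NK receptors listed, 7 were tested, 3 were called lower than in all other cells and none higher. These were Klra7 (19.6 against 126 CPM), Klrb1c (15.3 against 92.3 CPM) and Klra3 (log2 ratio -1.03). Tyrobp and Fcer1g, signaling adaptors that NK and myeloid cells share, were also called lower, with log2 ratios of -1.77 and -1.83, and they were the genes called from the lists of other lymphocytes and of macrophages. Tcm had the highest level of Klra7, at 317 CPM.

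Some genes of the CX3CR1+ effector state were above other cells without being called. Cx3cr1, the fractalkine receptor, was at 64.9, 67.5, 67.8 and 51.0 CPM in libraries 1 to 4 against 32.6, 19.6, 30.1 and 19.6 CPM in other cells (log2 ratio 0.97). It was highest in transitory Teff of all 8 clusters in 3 of 4 libraries, followed by cycling cells (51.0 CPM) and TIGIT+ Teff (49.2 CPM), and Tn and Tcm were at 0.642 and 1.56 CPM. After thinning to 2500 UMIs, 15.3% of transitory Teff cells had a Cx3cr1 UMI (24.6% unthinned) against 0.263% of Tcm (0.936% unthinned), whose median depth was 6958 UMIs. Klrg1, an inhibitory receptor of effector cells, was highest in the cluster in each library (27.5 to 54.5 CPM, other cells 10.1 to 22.0 CPM), and like Cxcr5 it was under the minimum of 50 CPM. Of the 12 genes listed for this state 8 were tested, 5 had a ratio above 0 and none was called.

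Genes of stem-like and progenitor cells were uneven. Of 16 listed, 11 were tested, Id3 was called higher and Satb1, a chromatin organizer of early T cells, was called lower (41.5 against 93.7 CPM). Tcf7 was at 136, 128, 108 and 146 CPM against 98.8, 123, 124 and 118 CPM, and the groups overlapped. Cxcr5, the receptor that guides cells to follicles, was at 22.4, 24.4, 8.84 and 40.1 CPM against 5.55, 4.63, 3.10 and 7.82 CPM, and was highest in transitory Teff in all 4 libraries. Klf2, which maintains egress and homing receptors, was higher without being called (574 against 305 CPM).

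None of the 15 inhibitory receptor genes listed (7 tested), 13 granule genes (11 tested), 20 transcription factor genes (12 tested) or 15 chemokine and cytokine genes (7 tested) was called in either direction. Pdcd1, which encodes PD-1, was at 221, 275, 192 and 287 CPM against 243, 165, 127 and 165 CPM, below other cells in library 1 and above them in the others. Tigit was at 338 CPM against 208 CPM and second to TIM-3+ Tex, at 567 CPM. Havcr2, which encodes TIM-3, was at 13.2 to 29.5 CPM in the libraries, against 19.0 to 37.2 CPM, under the minimum for a call. Tox, a factor of the exhaustion program, was at 324 against 230 CPM.

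Gzmb was at 293 to 661 CPM against 264 to 546 CPM and Ifng was at 115 to 198 CPM against 86.4 to 120 CPM. Of 28 immediate early and receptor-induced genes listed, Ier3 was the one called of 20 tested. In this list, Fos was at 105 against 113 CPM, and Nr4a1, induced by TCR signaling, was at 23.3 against 14.2 CPM, under the minimum. The costimulatory receptor genes Icos (61.7 against 31.6 CPM) and Cd28 (153 against 95.2 CPM) had log2 ratios of 0.79 and 0.63, above 0 in each library. No gene of the 14 costimulatory, 17 cytokine receptor, 18 signal feedback, 19 homing and adhesion, 15 glycolysis or 14 BCL2 family genes listed was called, nor was one of the 81 cytosolic ribosomal protein genes or of the 13 genes of mitochondrial DNA. Of 18 interferon-induced genes, Isg15 was called lower (62.8 against 137 CPM).

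Markers of other cell types were at low levels. The 12 macrophage genes summed to 144 to 168 CPM in the libraries of transitory Teff and to 2345 CPM in GzmA+ Tex. The 10 B and plasma cell genes summed to 130 to 174 CPM in transitory Teff and to 141 to 241 CPM in the other clusters, with Ms4a1 at 0. The 12 neutrophil and erythroid genes summed to 8.50 to 24.3 CPM, with Elane at 0, and the 8 genes of other lymphocytes to 17.7 to 26.7 CPM, with Trdv4 at 0. Their part in the differences between clusters was not tested beyond leaving such cells out. Lyz2, a macrophage gene, had a UMI in 0.846% of thinned cells (1.96% unthinned). The 8 T cell identity genes summed to 6957 to 7749 CPM in the libraries of transitory Teff and to 8183 to 9495 CPM in those of TIM-3+ Tex. Cd8b1 was highest in transitory Teff over all libraries (1327 CPM). Cd3e, Cd3g, Cd8a, Trac, Trbc1 and Trbc2 were higher in TIM-3+ Tex, with Cd8a at 1081 against 726 CPM. With the 508 transitory Teff cells that had no UMI of the macrophage, B and plasma cell genes, against other cells chosen in the same way, 9 genes were called higher, with Ier3, Cx3cr1, S100a4 and Klrg1 in the lead, and Id3 was not among them. This left 4 cells of GzmA+ Tex.

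Of the 4053 genes at 50 CPM or more in some cluster, 172 had their highest level in transitory Teff, and 23 of these in each library. Of these 23, Cd9, a tetraspanin gene, had the largest log2 gap to the next cluster (0.47), with 53.1 CPM against 35.5 CPM in cycling cells, and S100a6, which encodes a calcium-binding protein, was at 2101 against 1676 CPM. Lck, the kinase that starts TCR signaling, was at 794 against 700 CPM in TIM-3+ Tex. For comparison, 1647 genes were highest in TIGIT+ Teff and 1022 of them in each library.

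Over all libraries, the clusters closest to transitory Teff were GzmA+ Tex and TIM-3+ Tex. The median absolute log2 difference over genes was 0.10 for GzmA+ Tex, 0.12 for TIM-3+ Tex, 0.17 for GzmB+ Teff, 0.19 for Tcm, 0.26 for cycling cells, 0.28 for Tn and 0.41 for TIGIT+ Teff. In library 2 TIM-3+ Tex (0.144) was closer than GzmA+ Tex (0.149), and in library 3 GzmB+ Teff (0.236) and Tcm (0.237) were closer than TIM-3+ Tex (0.246). With thinned cells the order at both ends was the same (0.14 for both Tex clusters and 0.62 for TIGIT+ Teff). Small clusters carry more counting error, and GzmA+ Tex held 571 cells.

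**Figure D3:**
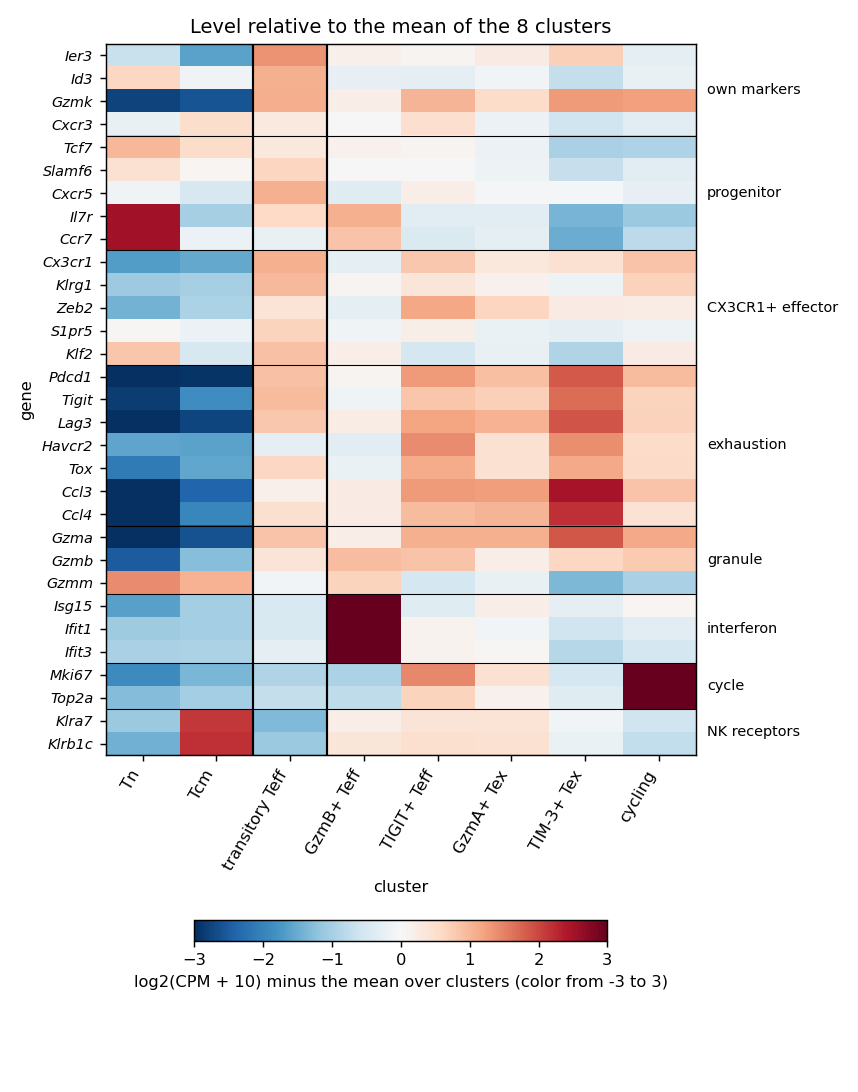
Level of 31 genes (rows) in the 8 clusters (columns) over all libraries, as log2(CPM + 10) minus the mean of the clusters, from blue (lower) to red (higher). Transitory Teff, between the black lines, combined Id3, Cxcr5, Cx3cr1, Klrg1 and Klf2 above the mean with Pdcd1, Tigit and Lag3 above Tn and Tcm and below TIM-3+ Tex.

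Against TIM-3+ Tex, 15 of 2873 genes were called higher in transitory Teff (0.522%) and 25 were called lower (0.87%). TIM-3+ Tex held 31 cells in library 3. Of the 16 listed progenitor genes, 10 were tested, 7 were called higher (Tcf7, Lef1, Slamf6, Id3, Il7r, Xcl1 and Klf2) and none lower, with a median log2 ratio of 1.25. Il7r, the IL-7 receptor that sustains memory cells, was at 130, 94.5, 130 and 69.2 CPM in libraries 1 to 4 of transitory Teff and at 3.12 to 31.1 CPM in TIM-3+ Tex (log2 ratio 2.002). Each library of transitory Teff was above each of TIM-3+ Tex. Id3 (1.79), Klf2 (1.78), the sphingosine receptor S1pr1 that allows egress (1.55), Slamf6 (1.32), Ly6c2 (1.30), Tcf7 (1.29) and the granzyme gene Gzmm (1.27) came next.

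The lower genes were led by Ccl3, an inflammatory chemokine, at 368 to 506 CPM in transitory Teff against 1911 to 4066 CPM (log2 ratio -2.31). Ccl4 followed the same pattern at 969 against 3208 CPM (-1.72). Havcr2 was at 17.2 against 76.7 CPM (-1.68), and it was called together with the inhibitory receptors Cd244a (-1.65), Cd200r1 and Lag3, 4 of the 15 listed. Adgrg1 (-1.89), 2900026A02Rik (-1.80), Chn2 (-1.69) and Itih5 (-1.64) completed the 8 lowest. Without library 4, 61 genes were called in place of 40. With the cells left out whose Leiden number was not that of their cluster, 69 genes were called.

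Against GzmB+ Teff, 11 of 2822 genes were called higher (0.39%) and 97 lower (3.44%). Of the 18 interferon-induced genes listed, 17 were called lower and none higher, with a median log2 ratio of -2.60. Ifit1 was at 12.5 to 15.5 CPM in transitory Teff against 354 to 375 CPM (-3.94), followed by Isg15 (-3.91), Ifit3 (-3.73), Usp18 (-3.72), Rsad2 (-3.59), Cxcl10 (-3.15), Mx1 (-3.04) and Slfn5 (-2.95). The ranges of the libraries did not overlap for Ifit1. Higher in transitory Teff were the calmodulin-binding Nrgn (1.51), Cx3cr1 (1.36), Id3 (1.33), Cd9 (1.26), the phosphatase gene Cdc25b (1.22), Ier3 (1.19), Rgs16 (1.13) and Tigit (1.07). Tigit was at 242 to 431 CPM against 99.4 to 176 CPM.

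Against Tcm, 75 of 2809 genes were called higher (2.67%) and 44 lower (1.57%). Pdcd1 was at 192 to 287 CPM against 6.13 to 11.6 CPM (log2 ratio 3.83) and Gzmk at 486 to 534 CPM against 26.3 to 36.9 CPM (3.67). Both were far apart in each library. Lag3 (3.58), Lgals3 (3.53), Gzma (3.46), Ier3 (2.96), Tigit (2.81) and S100a4 (2.79) followed, and 4 of 13 granule genes were called higher (Gzma, Gzmb, Gzmk and Prf1) and 1 lower (Gzmm). Of 12 CX3CR1+ effector genes, 5 were called higher and 1 lower. Of 14 NK receptor genes, 9 were called lower and none higher, with Klra7 at 19.6 against 317 CPM (-3.47). Klrb1c (-3.32), Fcer1g (-2.92), Klra6 (-2.83), Tyrobp (-2.73), Cym (-2.57), Klra1 (-2.47) and Klrc2 (-2.37) followed.

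For most genes chosen because they separate Tn from TIM-3+ Tex, the level in transitory Teff lay between theirs. No other cluster was placed in this way. The counts therefore do not show that such a place is particular to transitory Teff, or that cells move along this distance. Of 241 genes called higher in TIM-3+ Tex than in Tn (8.29% of 2907 tested), 225 were at a level between both in transitory Teff, at a median of 70.1% of the log2 distance from Tn. Pdcd1 was 80.2% and Havcr2 43.7% of the way. Of 61 genes called lower in TIM-3+ Tex (2.1%), 56 were between, at a median of 58.8%. Tcf7 was at 34.2%, Il7r at 48.7% and Ccr7, a homing receptor of naive cells, at 68.6% of the distance. Slamf6, Id3, Klf2 and Arl5c lay beyond the level of Tn, and Ier3, S100a4, S100a6, Lgals1 and Lgals3 were among 15 genes beyond that of TIM-3+ Tex.

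The cluster was not uniform. By their Leiden number, 1324 of the 1891 cells (70.02%) fell in the group that mostly bore the name of this cluster, against 93.0% to 99.5% of the cells of the 7 other clusters. Another 287 cells (15.2%) had the number of TIM-3+ Tex, 205 (10.8%) that of GzmB+ Teff and 66 (3.49%) that of Tn. The 287 cells had Ccl3 at 1000 CPM against 341 CPM in the 1324 cells, Havcr2 at 45.7 against 12.1 CPM, Pdcd1 at 449 against 190 CPM and Il7r at 15.1 against 114 CPM.

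The 205 cells with the number of GzmB+ Teff were low in the granzyme and interferon-induced genes of that cluster, where Gzmb was at 584 CPM and Isg15 at 1086 CPM. Gzmb was at 42.6 CPM in them against 499 CPM in the 1324 cells, and Isg15 at 65.1 against 66.9 CPM. They had Id3 at 265 against 59.9 CPM and Tcf7 at 244 against 115 CPM, with Cx3cr1 at 13.9 against 75.7 CPM and a median depth of 9234 UMIs against 5096. The 66 cells with the number of Tn had Ccr7 at 126 CPM and Il7r at 373 CPM, against 24.2 and 114 CPM in the 1324 cells.

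After thinning to 2500 UMIs, 277 cells had a Cx3cr1 UMI and none of Id3, 202 had the reverse, 12 had both and 1400 had neither. The split was chosen after these values had been seen. The median depth before thinning was 4593 UMIs for the cells with Cx3cr1 and 7520 for the cells with Id3, and the levels below are from thinned cells. Library 3 gave 25 and 13 of these cells. Of 1505 other genes with at least 100 CPM on a side, 34 were called higher in the cells with Cx3cr1 (2.26%) and 15 higher in the cells with Id3 (0.997%).

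Of the 12 CX3CR1+ effector genes listed, 9 were compared, of which 7 were called higher in the cells with Cx3cr1 and none in the cells with Id3, with a median log2 ratio of 1.33 against 0.04 over all 1505 genes. Of the 13 granule genes, 10 were compared and 4 were called higher in the cells with Cx3cr1 (Gzma, Gzmb, Prf1 and Fasl). Of 20 transcription factor genes, 11 were compared and Ikzf2 was called, higher in the cells with Id3. Tbx21, which encodes T-bet, had mixed directions (142 CPM with Cx3cr1 and 85.1 CPM with Id3), and Eomes was lower with Cx3cr1 in each library without reaching 2-fold (163 and 279 CPM). Gzma, granzyme A, was at 3595, 667, 1920 and 1376 CPM in libraries 1 to 4 against 157, 66.7, 0 and 74.5 CPM in the cells with Id3 (log2 ratio 4.25). Klrg1 was at 134 against 3.96 CPM (93 and 2 UMIs), the chemokine gene Ccl5 at 41265 against 8931 CPM, Gzmb at 673 against 141 CPM and Zeb2, a transcription factor of terminal effectors, at 120 against 19.8 CPM. Fasl, Prf1 (perforin), Ifng, S100a4, Lgals3, Klf2, S1pr1 and Cxcr6 were called in the same direction.

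Of the 16 progenitor genes listed, 7 were compared, of which 4 were called higher in the cells with Id3 and Klf2 in the cells with Cx3cr1, with a median log2 ratio (Cx3cr1 over Id3 cells) of -1.37 against 0.04 over all genes compared. Il7r (70.8 CPM with Cx3cr1 and 95.0 CPM with Id3) and Lef1 (82.3 and 109 CPM) had mixed directions over the libraries. Xcl1, the chemokine that draws cross-presenting dendritic cells, was at 808, 711, 1754 and 1306 CPM in libraries 1 to 4 against 212, 35.9, 0 and 103 CPM (log2 ratio -3.25). Slamf6 was at 289 against 40.4 CPM, Tcf7 at 253 against 91.0 CPM, Ikzf2 at 160 against 47.7 CPM and Cd9 at 109 against 30.3 CPM. Cxcr5 was at 59.4 against 11.6 CPM, under the minimum for a call.

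Of the 15 inhibitory receptor genes listed, 6 were compared and Cd160 was called, higher in the cells with Id3 (297 against 131 CPM). Havcr2 was higher with Cx3cr1 in each library but under the minimum for a call (33.2 against 1.98 CPM, 23 and 1 UMIs). Gzmk and some other genes had close levels on both sides. Gzmk was at 566 CPM in the cells with Cx3cr1 and 535 CPM in those with Id3, Cxcr3 at 230 and 242 CPM, Tigit at 378 and 406 CPM, Lag3 at 370 and 360 CPM and Pdcd1 at 261 and 307 CPM. None of these had the same direction in all 4 libraries. By Leiden number, 83.8% of the cells with Cx3cr1 and 51.0% of those with Id3 had that of the cluster itself, and 37.1% of those with Id3 had that of GzmB+ Teff.

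**Figure D4:**
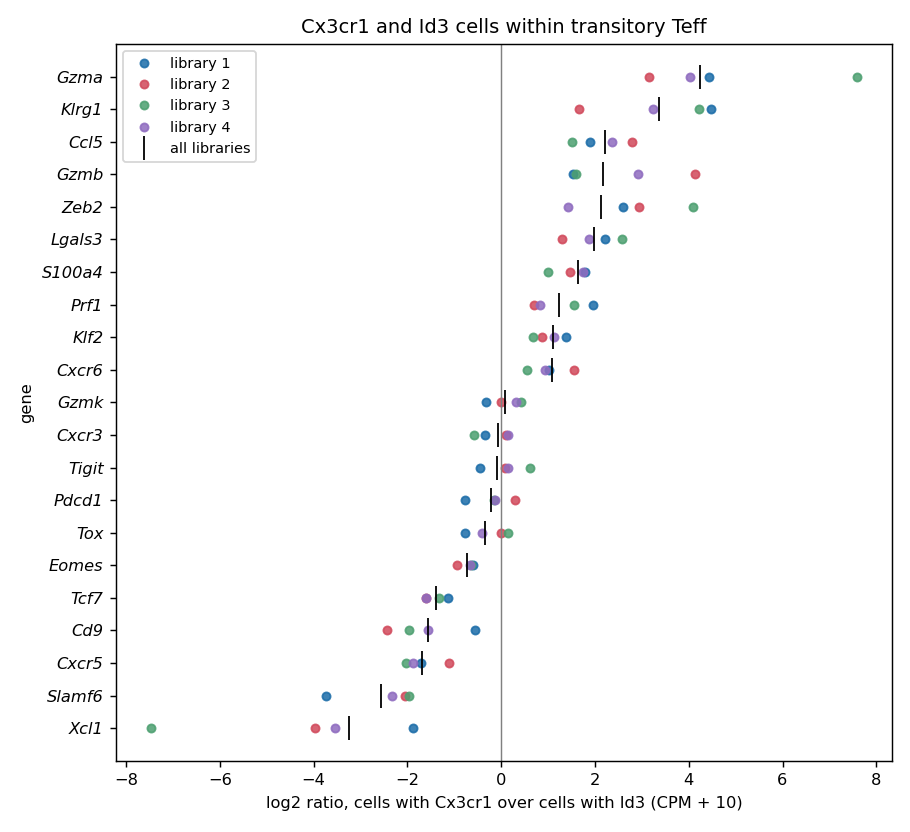
Log2 ratio of CPM (10 added) in transitory Teff cells with a Cx3cr1 UMI over those with an Id3 UMI, in thinned cells, for 21 genes. Colored points are libraries and black ticks all libraries. Gzma lay at 4.25 and Xcl1 at -3.25, while Gzmk, Cxcr3, Tigit, Pdcd1 and Tox lay near 0.

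A TCR was called in 1444 of the 1891 cells (72.7%, 78.2%, 81.8% and 76.5% in libraries 1 to 4). With the cells divided by depth into 3 equal parts, the share with a TCR was 86.8%, 87.3% and 55.0% from the shallowest part to the deepest. Of the cells with a TCR, 60.8%, 60%, 52.5% and 61.7% in libraries 1 to 4 belonged to clonotypes of over 5 cells in their library, 59.97% in all (Clopper-Pearson interval 57.4% to 62.5%). Another 25.5% had a clonotype seen in a single cell. The share in clonotypes of over 5 cells was 84.2% in TIM-3+ Tex (80.9% to 87.1%) and 61.1% in cycling cells. It was 49.5% in TIGIT+ Teff (44.2% to 54.7%) and 47.4% in GzmA+ Tex (40.9% to 54.0%). GzmB+ Teff had 17.9%, Tn 0.959% and Tcm 0.111%.

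Of 89 clonotypes of over 5 cells in a library, 86 had a cell in transitory Teff, and 85 of these also had cells in another cluster. The cells in clonotypes of this size were 866 transitory Teff, 608 cycling, 484 TIM-3+ Tex and 180 TIGIT+ Teff cells. GzmA+ Tex gave 111, GzmB+ Teff 90, Tn 11 and Tcm 3. By number the cluster was thus the largest part of these cells. By share of cells with a TCR, TIM-3+ Tex stood above it (84.2% against 59.97%) and cycling cells were at 61.1%. The count expected from the size of the cluster alone was not calculated. How many of the 89 clonotypes had a cell in each other cluster is not given, so the 86 are not shown to be particular to transitory Teff. A median of 40% of the cells of such a clonotype were in transitory Teff, and it was the most frequent cluster of 45. Only cells with a TCR count here, which were 1444 of 1891 in transitory Teff. They were 575 of 1056 in TIM-3+ Tex, 995 of 1928 in cycling cells, 364 of 816 in TIGIT+ Teff and 234 of 571 in GzmA+ Tex. In GzmB+ Teff they were 502 of 732, in Tn 1147 of 1342 and in Tcm 2700 of 3418. These shares were not adjusted for. Of the 866 cells of the cluster in clonotypes of over 5 cells, 859 shared their clonotype with a cell of another cluster.

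Clones are here taken as cells of a library with the same TRB CDR3 nucleotides. Of the 10 with the most transitory Teff cells, the sequences of 7 are shown because most of the values given for clones refer to them, and those of the TRBV15, TRBV13-1 and TRBV10 clones are not shown. In the CDR3 sequences below, read 5′ to 3′ from the TCR data, lower case marks the longest stretch at the start that occurs in the transcript of the V gene and the longest at the end that occurs in that of the J gene (GENCODE M21), and capitals mark the bases between them, which neither segment covered and which can hold a D segment.
TRBV16/TRBJ2-7, library 4: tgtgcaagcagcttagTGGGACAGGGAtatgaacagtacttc
TRBV17/TRBJ2-7, library 2: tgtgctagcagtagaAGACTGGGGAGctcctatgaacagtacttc
TRBV3/TRBJ2-2, library 1: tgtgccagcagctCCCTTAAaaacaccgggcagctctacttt
TRBV1/TRBJ2-1, library 1: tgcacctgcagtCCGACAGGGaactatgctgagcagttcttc
TRBV2/TRBJ2-2, library 4: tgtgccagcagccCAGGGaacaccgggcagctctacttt
TRBV30/TRBJ2-7, library 1: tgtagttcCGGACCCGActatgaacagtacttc
TRBV16/TRBJ1-4, library 3: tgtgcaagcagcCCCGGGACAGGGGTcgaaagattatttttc

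The alpha chain is shown for 4 of the clones in which all cells with a single alpha call had the same one, to complete the receptor. This also held for the TRBV1 (171 of 171) and TRBV16/TRBJ1-4 (67 of 67) clones, whose alpha chains are not shown. It did not hold for the TRBV2 clone (24 of 65).
TRAV9-4/TRAJ50, with TRBV16/TRBJ2-7: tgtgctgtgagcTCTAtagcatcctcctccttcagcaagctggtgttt
TRAV9-1/TRAJ45, with TRBV17: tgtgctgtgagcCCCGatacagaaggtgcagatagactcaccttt
TRAV13D-1/TRAJ21, with TRBV3: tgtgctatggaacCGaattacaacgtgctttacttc
TRAV3-3/TRAJ47, with TRBV30: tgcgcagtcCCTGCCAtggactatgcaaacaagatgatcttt

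The TRBV16/TRBJ2-7 clone had 204 cells in library 4, of which 100 were transitory Teff, 44 cycling and 38 TIM-3+ Tex. The TRBV17 clone had 165 cells in library 2, of which 91 were transitory Teff. These were 25.1% of that library's transitory Teff cells with a TRB call. The TRBV1 clone of library 1 was spread differently, with 78 of 185 cells in TIM-3+ Tex and 40 in transitory Teff. In the TRBV30 clone 30 of 36 cells were transitory Teff and none was TIM-3+ Tex, and in the TRBV16/TRBJ1-4 clone of library 3 there were 26 of 72 and none, with 21 TIGIT+ Teff cells. Cells with the TRB sequence of the TRBV17 and TRBV1 clones were also found in other libraries, 18 and 22 of them.

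**Figure D5:**
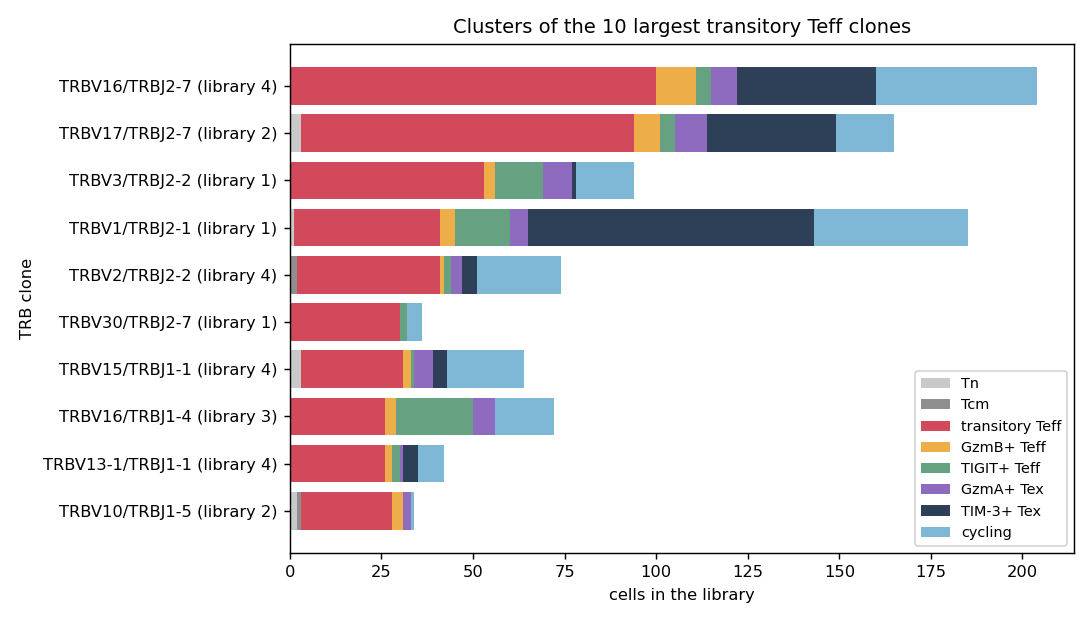
Number of cells (horizontal axis) of the 10 TRB clones with the most transitory Teff cells, 1 bar per clone with its library, divided by cluster. Transitory Teff, in red, made up 21.6% of the TRBV1 clone and 83.3% of the TRBV30 clone.

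The transitory Teff cells of single clones differed in expression by more than counting error. Gzma was at 5031 CPM in the TRBV30 clone of library 1 (Poisson interval 4693 to 5386, 30 cells). It was at 132 CPM in the TRBV3 clone of the same library (90.2 to 186, 53 cells) and at 34.3 CPM in the TRBV17 clone of library 2 (19.2 to 56.6, 91 cells). Id3 was at 238 CPM in the TRBV2 clone of library 4 (187 to 298) and had no UMI in the TRBV30 and TRBV16/TRBJ1-4 clones, for which a limit of 3 counts is 18.3 and 21.7 CPM, and the upper ends of the Poisson intervals are 22.5 and 26.7 CPM. Xcl1 was at 1605 CPM in the TRBV1 clone of library 1 (1445 to 1777) and at 48.8 CPM in the TRBV30 clone of that library (21.1 to 96.2). It had no UMI in the TRBV16/TRBJ1-4 clone of library 3. Pdcd1 was at 472 and 476 CPM in the 2 largest clones and at 34.0 CPM in the TRBV10 clone of library 2 (7.01 to 99.4). Each clone is a set of cells of 1 library with the same TRB chain, and it can hold more than 1 lineage. The alpha chain taken for the TRBV2 clone was found in 24 of 65 cells with an alpha call. For the TRBV15 clone it was 30 of 61. For clones of different libraries, clone and library cannot be told apart. The levels are values of clones and not of a condition.

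Cells of single-cell clonotypes in the cluster had Pdcd1 at 135 CPM (121 to 150) and cells in clonotypes of over 5 cells at 347 CPM (331 to 364). Ier3 was at 57.0 and 151 CPM and Id3 at 98.9 and 85.2 CPM. The intervals do not cover differences between clones, and a few clones weigh on the larger clonotypes. The TRBV16/TRBJ2-7 and TRBV17 clones held 277 and 208 Pdcd1 UMIs, beside 1668 in all cells of clonotypes of over 5 cells. For Ier3 the TRBV17 clone held 196 UMIs, at 448 CPM, beside 725. Whether the levels follow clone size was not tested. In cells with a TCR, 61.3% of those with Cx3cr1 (54.5% to 67.7%) and 55.7% of those with Id3 (47.6% to 63.6%) were in clonotypes of over 5 cells. The intervals overlapped, but they treat cells of the same clone as independent. The direction was mixed, at 56.7%, 72.1%, 56.5% and 57.7% with Cx3cr1 in libraries 1 to 4. With Id3 the shares were 57.1%, 41.2%, 30% and 64.6%. Of TRB clones, 26 had cells of both kinds, 23.6% of the 110 clones with a Cx3cr1 cell and 29.9% of the 87 with an Id3 cell.

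Within the cluster, 48 of 3013 genes with at least 50 CPM in some library differed 2-fold or more between the highest and the lowest library (1.59%), and the median log2 range was 0.28. S100a4 was at 249, 262, 787 and 191 CPM in libraries 1 to 4, and library 3 stood apart. Xcl1 was at 495, 356, 251 and 1024 CPM, highest in library 4, where Id3 was also highest. Spp1, which encodes osteopontin, was at 5.46, 62.2, 3.68 and 18.6 CPM. The replication histone genes Hist1h1b, Hist1h2ab and Hist1h3e were high in libraries 1 and 3, with Hist1h1b at 112, 19.4, 125 and 16.2 CPM, and they were also highest in these libraries in other cells.

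Prss2, a trypsinogen gene, varied most, at 293, 2.96, 0 and 8.10 CPM in libraries 1 to 4. Of the 1073 Prss2 UMIs of transitory Teff in library 1, 278 lay outside the TRBV3 clone. All 53 transitory Teff cells of this clone had a Prss2 UMI, as did 90 of its 94 cells in all clusters, with a median of 12.5 UMIs per cell. Of 355 transitory Teff cells of library 1 with another TRB chain, 41 had one (11.5%), as did 29 of 160 with no TCR call. Over all clusters of library 1, cells with no TCR call held 2637 of 4276 Prss2 UMIs and the clone held 1232. Without the clone the level of the cluster in library 1 was 81.2 CPM. Prss2 lies within the TRB locus (chromosome 6, 41521787 to 41525079, plus strand), after the V gene Trbv30 (41281376 to 41281990) and before the first D segment Trbd1 (41533201 to 41533212).

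Penk, which encodes proenkephalin, was at 37.1, 5.60, 5.90 and 70.8 CPM. It had a UMI in 64 of 1891 cells, and 10 of these held 68.7% of its 511 UMIs. It was at 452 CPM in the TRBV15 clone of library 4 and 191 CPM in the TRBV1 clone of library 1, and the 42 of these cells with a TRB call belonged to 25 clones. Among TCR segments counted as genes, Trbv17 had the largest ratio to other cells (431 against 149 CPM, log2 ratio 1.47), at 35.2, 1502, 270 and 110 CPM in libraries 1 to 4. By cell, TRBV17 made up 30% of the transitory Teff cells of library 2 and with each clone counted once 5.98%.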

How the data were processed

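CD8+ T cells of 4 libraries were sequenced with a 5′ droplet method for expression and TCR. Per the labels the authors used Cell Ranger 7.00 and mm10, and the methods give downsampling across libraries, filters on UMIs (2502 to 24983 in the deposited cells) and mitochondrial share, and clusters from Monocle3. The deposited table holds UMI counts of 17561 genes that the authors did not normalize, the deposited mitochondrial share is a fraction, and clonotypes are the authors' own. No column of per-sample values was left unused.

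Each Leiden number was given the cluster name that most of its cells had. Counts were summed by cluster and library with Python 3.11.15, numpy 2.4.6, scipy 1.17.1 and pandas 2.3.3, and checked on simulated data. The 236 TCR and immunoglobulin segment genes were left out of calls. Cells were thinned to 2500 UMIs with seed 7. Doublets were not removed, and 7.62% of members with a TCR had more than 1 TRB chain. Symbols and coordinates are from GENCODE M21 (GRCm38) for 17534 genes. Named genes were the given markers, the 12 highest and lowest called genes against all other cells, 8 each way against 3 clusters, members of 22 lists and the 8 genes with the largest range over libraries. The members and lists were chosen with earlier results of these data known. Alternatives changed weights, depth, minimum, added CPM, cell grouping and clonotype definition, and left out each library. One gene is not reported here.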

Additional observations from a re-analysis of the deposited data

Results flagged for a closer look

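The TCR data hold 1004 barcodes outside the expression table, and no comparison above used them. Of these, 545 (54.3%) carried the TRB sequence of a transitory Teff clone of the same library, 309, 66, 86 and 84 in libraries 1 to 4, and 482 of them that of a clone of over 5 cells. These barcodes were set apart because they lie outside the main measurement, and their cluster is not known. The same share was not calculated for TCR barcodes with expression data. Of the 89 clonotypes of over 5 cells, 86 had a transitory Teff cell, so the match is not shown to be particular to this cluster.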

How the results depend on the processing

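The share of the cluster was 16.1% of cells, 11.7% by Leiden number, 10.3% with each clonotype counted once and 14.5% to 17.6% with each library left out. Against all other cells, 3 genes were called higher in the reported comparison. The number was 9 with cells thinned to 2500 UMIs, 6 with 1 CPM added, 6 with a minimum of 20 CPM and 6 with 1 CPM, 9 by Leiden number, 34 with single-cell clonotypes only, 9 without cells that had macrophage or B cell UMIs, 13 without cycling cells, and 1 to 8 with each library left out. Genes called lower, 55, numbered 114 with a minimum of 20 CPM, 146 with 1 CPM, 24 with single-cell clonotypes, 18 without cycling cells, 24 with the other clusters weighted equally, and 45 to 57 with each library left out. Between transitory Teff and TIM-3+ Tex, 40 genes became 63 and 70 with a minimum of 20 and 1 CPM, 62 by Leiden number, 98 with single-cell clonotypes, 92 without cells with macrophage or B cell UMIs, 69 without cells of another Leiden number, and 31 to 61 with each library left out. For GzmB+ Teff the 108 genes stayed within 1.5 times, at 105 to 114 with each library left out. For Tcm the 119 became 198 and 227 with a minimum of 20 and 1 CPM, and 106 to 121 with each library left out. Birc5 and Ube2c turned to 0.13 and 0.41 without cycling cells. The share of cells in clonotypes of over 5 cells, 59.97%, was 67.7% by TRB nucleotides, 56.3% by Leiden number, 74.5% for over 1 cell, 43.8% for over 20 cells, and 59.0% to 60.9% with each library left out. Lower minima test more genes, and the single-cell clonotypes of the other side came mostly from Tn and Tcm. The causes of the other changes were not tested. No paired analysis was possible because no test was made. Each treatment is 1 library of unknown number, and clusters, which were compared within each library, were defined on the same transcripts.

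Depth limits low genes, since the median cell held 5545 UMIs, and library 3 gave 198 cells. After leaving out cells with macrophage or B cell UMIs, 508 transitory Teff cells and 4 GzmA+ Tex cells were left.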
